A study of Mus musculus with 24 samples.

Results

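Triple knockout (TKO) mouse embryonic stem cells (ESCs), in which *Tet1*, *Tet2* and *Tet3* were all edited, were compared with wild-type (WT) ESCs after 6 days without leukemia inhibitory factor (LIF), a time point called D6. The comparison is between 5 of the 24 libraries of the series, chosen by the labels alone, and its test took the spread between clones from all 12 libraries of the day, which also hold DKO, *Tet2*-/- and 3 *Tet1*-/- clones. They are the TKO clones labelled TKO_8.4 (replicate 1) and TKO_8.12 (replicate 2) and WT clones O4.2 (replicate 1), O4.1 (replicate 2) and O4.13 (replicate 3), with 1 library of polyadenylated RNA per clone. By their labels, the same 5 clones were also sequenced before LIF withdrawal (D0), and DKO (*Tet1* and *Tet2* edited) and *Tet2*-/- clones were sequenced at D6, with 2 clones each. All clones, WT included, derive from 1 parental clone of a 129/SVj line that carries eGFP at the *Pou5f1* locus, and they were grown on gelatin without feeder cells. WT therefore stands for 3 clones of 1 line, TKO for 2 edited clones of that line, and the p-values measure the spread between clones and not between independently derived lines.

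TET proteins oxidise 5-methylcytosine in DNA, the step by which methylation can be removed actively, and they also bind other chromatin regulators. LIF holds mouse ESCs in the naive pluripotent state through Stat3. Without it the cells leave that state, pass through a formative, epiblast-like stage and form a mixed culture with cells of several germ layers, in which Nodal, BMP and Wnt signals direct the formation of primitive streak, mesoderm and endoderm. DNA methylation also keeps a group of germline genes, whose promoters are rich in CG dinucleotides, silent in somatic cells.

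The edited sites are shown first, because they bear on what a transcript level can say about the edit. All of them lie on the minus strand of mm9 in coding exons. The *Tet1* site is chr10:62296283-62296317, of which 32 of the 35 bases are in the coding exon chr10:62296286-62296376 and 3 bases lie past its end. The *Tet2* site is chr3:133148610-133148641 and the *Tet3* site is chr6:83329882-83329910, both wholly in coding exons. The sites are written 5′ to 3′ on the coding strand, with the 20 bases of the guide in capitals.

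Tet1 site, guide in capitals: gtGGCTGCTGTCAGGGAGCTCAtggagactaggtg

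Tet2 site, guide in capitals: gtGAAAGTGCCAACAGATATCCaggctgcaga

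Tet3 site, guide in capitals: ggcAAGGAGGGGAAGAGTTCTCGaggctg

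The indel table of the study gives the alleles of both TKO clones, numbered 1 and 2. The D0 labels number TKO_8.4 as 1 and TKO_8.12 as 2, but whether the indel table uses the same numbers is not stated. In table clone 1 the *Tet1* alleles lost 9 and 12 bases and the *Tet2* alleles 18 and 1, while its single *Tet3* allele lost 2. In table clone 2 the *Tet1* alleles lost 4 and 1 bases, the *Tet2* alleles 8 and 1, and the single *Tet3* allele 16. The 2 *Tet1* deletions of table clone 1 are divisible by 3, as is its 18-base *Tet2* deletion, whereas none in table clone 2 is. Deleted bases are in capitals below. The *Tet1* alleles and the longer *Tet2* deletion of each clone are printed because they show this difference between the clones, and the *Tet3* alleles because only TKO carries that edit among the clones compared here.

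Tet1, indel table clone 1, allele 1: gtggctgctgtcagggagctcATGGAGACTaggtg

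Tet1, indel table clone 1, allele 2: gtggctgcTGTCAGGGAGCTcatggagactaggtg

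Tet1, indel table clone 2, allele 1: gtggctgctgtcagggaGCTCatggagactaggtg

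Tet1, indel table clone 2, allele 2: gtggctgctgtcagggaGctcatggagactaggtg

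Tet2, indel table clone 1, allele 1: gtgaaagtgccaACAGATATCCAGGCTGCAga

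Tet2, indel table clone 2, allele 1: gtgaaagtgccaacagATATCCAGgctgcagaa

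Tet3, indel table clone 1, allele 1: ggcaaggaggggaagagtTCtcgaggctg

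Tet3, indel table clone 2, allele 1: ggcaaggagGGGAAGAGTTCTCGAGgctg

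The first of these alleles also carries the substitutions G14T, C19A, T20C and C21T, counted from 1 at the first base of the printed site. All deleted bases lie in coding exons. For *Tet3* 1 allele was found in each TKO clone, and a larger indel of the other allele that escaped PCR is not excluded by the indel table. The deletions that were read leave most of the transcript in place, so the RNA level of a Tet gene does not check the loss of its protein, and protein was not analysed here.

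RNA of the edited genes was present in both TKO clones. *Tet1* was at 269 CPM (counts divided by the TMM-scaled library total and given per 1e+06) in TKO_8.4 and 61.4 in TKO_8.12 at D6, against 121, 134 and 114 CPM in WT clones O4.1, O4.2 and O4.13. One TKO clone was thus above and the other below all WT clones (log2 fold change 0.43 ± 0.50 SE). *Tet2* was at 17.5 and 11.2 CPM in the TKO clones and 13.7, 17.1 and 12.9 CPM in WT, so the groups overlapped. *Tet3* was at 8.34 and 9.31 CPM in TKO and 20.5, 14.3 and 22.1 CPM in WT, without overlap (log2 fold change -1.10 ± 0.21, adjusted p = 0.0641). At D0 the order of the TKO clones for *Tet1* was the same and the gap wider, with 538 and 39.5 CPM against 408, 209 and 349 in WT. *Tet2* at D0 fell from 88.9, 89.0 and 83.4 CPM in WT to 40.3 and 7.72 CPM in TKO (log2 fold change -1.86 ± 0.51, adjusted p = 0.0426). That call was lost with robust dispersion, with only the TKO and WT libraries and without WT O4.1, O4.2 or O4.13 at D0, in turn.

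**Figure D1:**
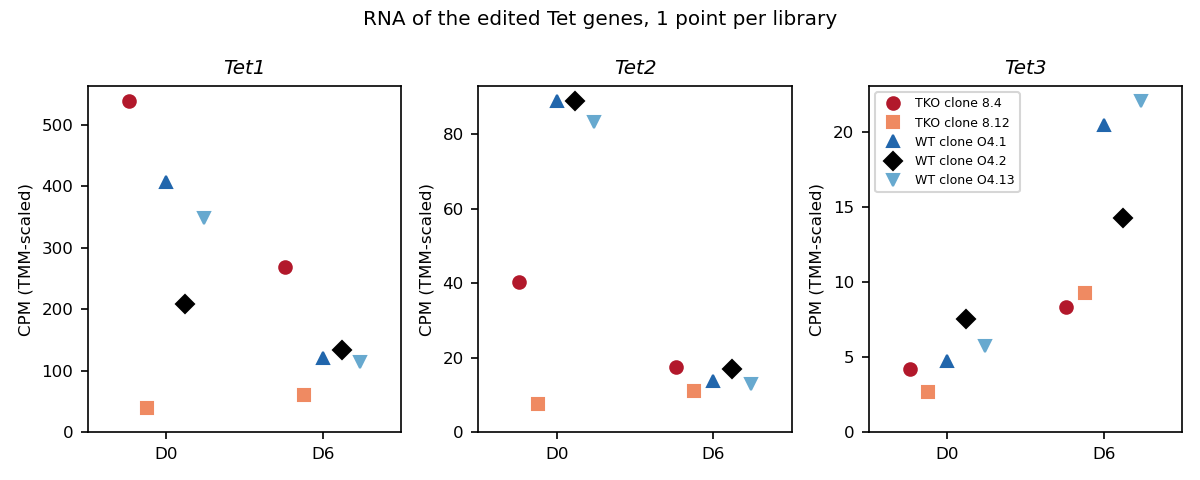
RNA of *Tet1*, *Tet2* and *Tet3* in CPM, 1 point per library, in WT and TKO clones at D0 and D6. TKO_8.12 held 61.4 CPM of *Tet1* at D6 and TKO_8.4 held 269, on either side of the WT clones, while *Tet3* at D6 was lower in both TKO clones than in every WT clone.

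The 5 libraries at D6 held 18400463 to 29931126 counts, a count of 3 equals 0.0997 to 0.161 CPM, and TMM factors were 0.960 to 1.02. Counts varied between clones by 61.9 times the sampling variance on average in TKO (median 8.43) and 42.2 times in WT (median 8.27). The biological coefficient of variation at D6 was 0.278 between the TKO clones and 0.214 between the WT clones, against 0.109 for DKO and 0.0698 for *Tet2*-/-. WT clone O4.2 stood apart from the other WT clones. It differed more than 2-fold (log2 of CPM + 1) from O4.1 at 759 genes and from O4.13 at 512, while O4.1 and O4.13 differed at 64. Counts of calls that turn on a single clone are given with and without it. Markers of fibroblasts and macrophages had 9 of 14 genes in the tested set with a median log2 fold change of -0.12. Their summed level was 58.0 and 127 CPM in TKO and 120 to 363 CPM in WT, and 3 of the 9 were lower in both TKO clones than in all WT clones, as were 18.7% of all tested genes. The macrophage markers *Emr1*, *Lyz2*, *Tyrobp* and *Ptprc* were at or near 0 in all 5 libraries.

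Of 15435 genes tested at D6, 0 were called higher and 0 lower in TKO than in WT (0% each) by edgeR's quasi-likelihood test at an adjusted p under 0.05 and a change over 2-fold. The smallest adjusted p was 0.0641. At an unadjusted p under 0.05 and the same fold, 505 genes (3.27%) were higher and 498 (3.23%) were lower, and at an adjusted p under 0.1 the counts were 188 and 219. DESeq2 called 176 higher and 294 lower on the same counts. The count also depended on single clones. Without WT clone O4.2, edgeR called 376 genes higher and 345 lower, and without TKO_8.4 it called 140 and 126, whereas without TKO_8.12, WT O4.1 or WT O4.13 it called 0 and 0. The values below are therefore those of genes that did not pass the adjusted test, unless a sentence says otherwise. The 2 TKO clones both lay above all WT clones at 2722 genes (17.6%) and both below at 2888 (18.7%), which is the background for the counts that follow, and 51.6% of all genes had a log2 fold change above 0. Except for the germline and definitive endoderm lists, the median of every list below moved by over 1.5 times when at least 1 library was left out, and the ranges are in the closing section.

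Germline genes under DNA methylation were higher in TKO as a group at D6. All 27 tested genes of the list had a log2 fold change above 0, with a median of 1.53 against 0.02 over all tested genes. Both TKO clones were above all WT clones for 22 of the 27 (background 17.6%), and 20 of the 27 were higher at an unadjusted p under 0.05 and over 2-fold (background 3.27%), while none was lower. By DESeq2, 14 of the 27 passed the adjusted test. By edgeR without WT clone O4.2, 19 passed, and without TKO_8.4, 4 passed. The summed level of the list was 490 and 458 CPM in the TKO clones and 142, 272 and 165 CPM in WT O4.1, O4.2 and O4.13, so that O4.2 lay nearest to TKO without reaching it.

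*Stk31* (chr6:49345603-49419500, mm9), a testis kinase gene, was at 8.44 and 20.5 CPM in TKO_8.4 and TKO_8.12 and at 1.24, 3.35 and 1.81 CPM in WT O4.1, O4.2 and O4.13. The difference was 2.74 ± 0.50 on the log2 scale. *Dpep3*, which encodes a testis dipeptidase, was at 1.83 and 4.09 CPM in TKO and 0.215, 0.545 and 0.335 CPM in WT (2.96 ± 0.56). *Brdt* (chr5:107760178-107816077), a bromodomain protein of the male germline, was at 2.43 and 7.07 CPM in TKO and 0.161, 0.740 and 0.637 CPM in WT (3.13 ± 0.61). All of these had an adjusted p of 0.0641, TKO_8.12 was the higher TKO clone for each, and their groups did not overlap.

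*Sycp1* (chr3:102622422-102740023), which encodes a core protein of the synaptonemal complex that joins paired chromosomes in meiosis, was similar in the TKO clones. It was at 14.4 and 16.0 CPM in TKO and 6.72, 5.76 and 5.23 CPM in WT, a difference of 1.36 ± 0.24 with an adjusted p of 0.0641. At D0 the same clones held 3.25 and 4.84 CPM in TKO and 2.75, 4.11 and 3.61 CPM in WT, with overlap. Among germline genes picked after their values were seen, *Dazl*, an RNA-binding protein of germ cells, was at 14.5 and 19.9 CPM in TKO and 1.51, 9.62 and 2.21 CPM in WT. *Piwil2*, which acts in the piRNA pathway, was at 18.5 and 13.9 CPM in TKO and 3.01, 7.28 and 3.49 CPM in WT. For both, WT O4.2 was the highest WT clone and still below both TKO clones.

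At D0 the same list did not stand above WT. Its median log2 fold change was -0.49, and 6 of its 27 genes were called lower in TKO and 0 higher, where 2.12% (306) and 1.03% (149) of all 14456 genes tested at D0 were. Without TKO_8.12 at D0 the list had 13 lower and a median of -1.22, and without TKO_8.4 it had 6 lower, 1 higher and a median of -0.31. Without WT O4.1 at D0 it had 7 lower and a median of -0.81. Fitted with only the TKO and WT libraries, 2 genes were called lower and 1 higher at D0, none of them in this list. Without TKO_8.4 at D0 the counts over all genes were 688 and 459, without TKO_8.12 506 and 344, without WT O4.13 168 and 58 and without WT O4.2 90 were higher. *Dnmt3l*, the cofactor of the de novo methyltransferases, fell from 249, 236 and 237 CPM in WT to 103 and 116 CPM in TKO at D0 (log2 fold change -1.14 ± 0.11, adjusted p = 0.000355). At D6 it was at 190 and 140 CPM in TKO and 49.5, 67.6 and 61.1 CPM in WT (1.47 ± 0.43, adjusted p = 0.0911). *Dazl*, *Piwil2*, *Smc1b*, *Rpl10l* and *Rpl39l* were the other germline genes called lower at D0, and reads of the last 2 can be shared with their near-identical parent genes.

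**Figure D2:**
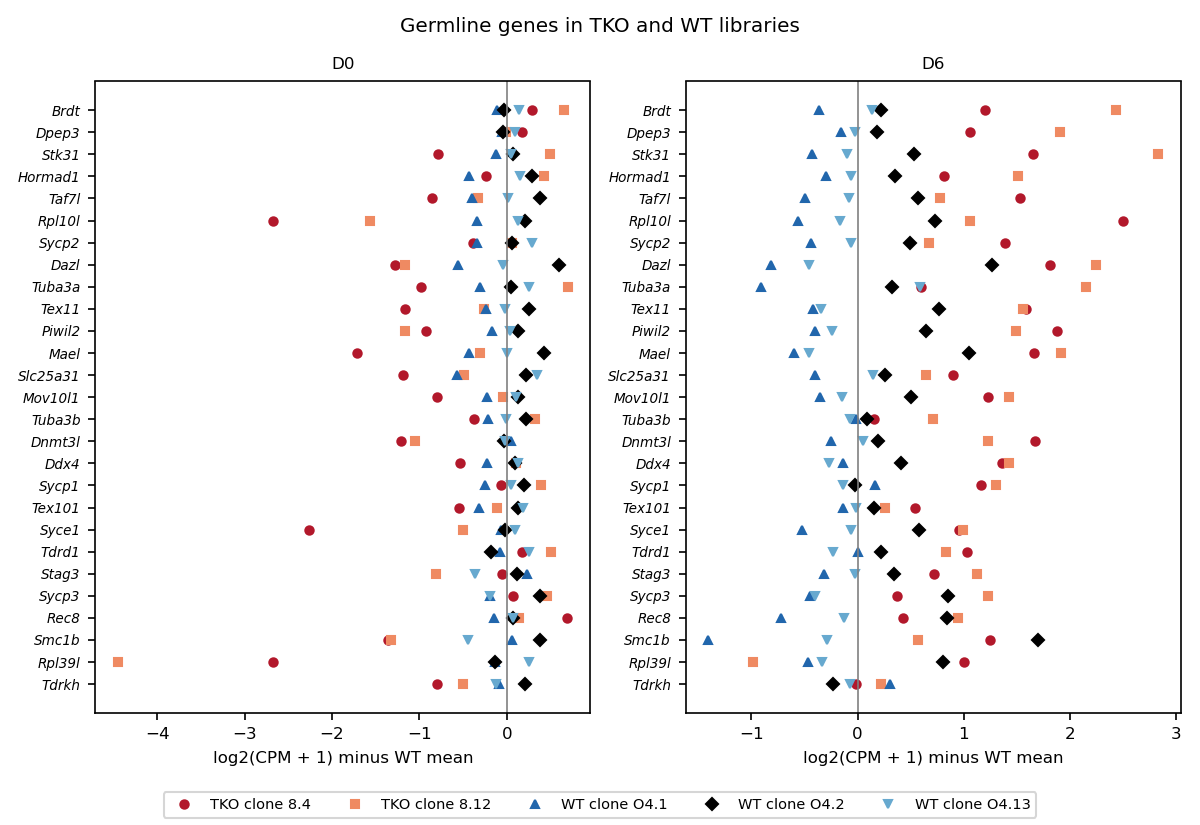
The 27 tested germline genes at D0 (left) and D6 (right), with log2(CPM + 1) of each library minus the mean of the 3 WT libraries on the x axis and 1 row per gene. At D6 both TKO clones are right of every WT clone for 22 genes, and WT clone O4.2 (black) is mostly the WT clone nearest to them.

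The promoters of the list are shown for *Sycp1* and *Brdt*, the former for the small spread between clones and the latter for the largest log2 fold change in the list. The letters are those of RefSeq on GRCm38.p6, from 250 bases before to 50 bases after the start of the gene, 5′ to 3′ on the strand of the gene, with CG dinucleotides in capitals. These are chr3:102936051-102936350 on the minus strand and chr5:107330944-107331243 on the plus strand of that build. They hold 21 and 23 CG.

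Sycp1 promoter: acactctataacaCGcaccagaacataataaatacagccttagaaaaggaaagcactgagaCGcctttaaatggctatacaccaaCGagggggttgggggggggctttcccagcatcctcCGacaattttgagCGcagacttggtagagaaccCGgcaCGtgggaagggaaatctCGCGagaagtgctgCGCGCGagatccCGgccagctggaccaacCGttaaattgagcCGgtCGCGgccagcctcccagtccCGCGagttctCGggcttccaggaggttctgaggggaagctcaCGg

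Brdt promoter: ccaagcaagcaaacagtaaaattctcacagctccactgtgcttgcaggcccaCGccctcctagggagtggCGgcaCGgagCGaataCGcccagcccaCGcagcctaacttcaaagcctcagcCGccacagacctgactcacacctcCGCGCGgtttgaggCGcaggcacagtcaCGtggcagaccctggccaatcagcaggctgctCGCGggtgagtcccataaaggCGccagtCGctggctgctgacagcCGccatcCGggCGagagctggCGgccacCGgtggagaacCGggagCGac

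Windows of this kind were matched for 26 genes of the germline list. Their median was 19.5 CG, against 7 over the 27025 genes with a window, and 96.2% of them held 8 or more CG against 49% of all. The sequence CACGTG, an E-box that reads the same on both strands and itself contains a CG, was in 12 of the 26 (46.2%) and in 7.24% of all windows. GCGGGA, searched on both strands, was in 12 of the 26 (46.2%) and in 20% of all, and it also contains a CG. These counts describe the letters in the windows, and neither methylation nor binding at them was analysed here. The list was drawn from a group known for promoters rich in CG, so its CG content is no separate result. The motif counts were not matched for CG content.

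Two-cell-like genes, which are transcribed in the embryo when its genome is activated and in rare ESCs, were higher in TKO_8.4 than in TKO_8.12, with median log2 differences (CPM + 1) from the WT mean of 0.92 and 0.11. All 11 tested genes of the list had a log2 fold change above 0 with a median of 3.00, and 9 of the 11 were higher at an unadjusted p under 0.05 and over 2-fold, but both TKO clones were above all WT clones for only 5. *Zscan4d*, picked after its values were seen, was at 1.96 CPM in TKO_8.4 and 0.213 CPM in TKO_8.12, against 0.161, 0.156 and 0.0671 CPM in WT. *Gm8300* was at 1.76 and 0.160 CPM in TKO and 0.161, 0 and 0.0671 CPM in WT. *Usp17la* was at 2.06 and 0.213 CPM in TKO and 0.108, 0.117 and 0.0671 CPM in WT. The TKO_8.12 values of these genes lie near the level of 3 counts in that library, as do the WT values, and without TKO_8.4 the median of the list was 0.77. With only the TKO and WT libraries in the fit, 1 gene of the list passed the low-count filter, with a log2 fold change of 0.43. The other members thus entered the test through libraries of other genotypes. The tallies of direction and of unadjusted p rest mainly on TKO_8.4 and are no separate support. *Zscan4* and *Usp17l* genes are multigene families, so the share of reads given to each member is uncertain. At D0 the direction was the opposite, since 9 of 13 tested genes were called lower in TKO with a median of -2.39, or 2 of 12 without WT O4.13 at D0 and 0 of 11 with only the TKO and WT libraries. Of the *Rhox* genes, an X-linked cluster of homeobox genes of the reproductive tract, 5 were tested, with a median of 1.20 and 1 higher at an unadjusted p under 0.05.

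Naive pluripotency genes were partly higher in TKO. Of 23 tested genes, 17 had a log2 fold change above 0 and the median was 0.52, with 7 higher and 1 lower at an unadjusted p under 0.05 and over 2-fold, and both TKO clones lay above all WT clones for 10 and below for 2. By DESeq2 4 were called higher and 1 lower, and by edgeR without WT clone O4.2 10 were called higher. *Fbxo15*, a target of Oct4 and Sox2 in ESCs, was at 128 and 135 CPM in TKO and 18.3, 45.0 and 27.6 CPM in WT (2.12 ± 0.35, adjusted p = 0.0641). *Dppa3* (Stella), which shields the maternal genome from demethylation, was at 14.0 and 70.5 CPM in TKO and 0.914, 3.15 and 5.43 CPM in WT (3.70 ± 0.72, adjusted p = 0.0641). For both genes the groups were apart, but the TKO clones were close to each other for *Fbxo15* only.

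*Zfp42* (Rex1), a zinc finger gene used as a marker of undifferentiated ESCs, was at 322 and 208 CPM in TKO and 47.4, 131 and 71.6 CPM in WT. *Dppa4*, a chromatin protein of pluripotent cells, was at 52.9 and 56.1 CPM in TKO and 14.9, 31.6 and 15.5 CPM in WT. WT O4.2 was the highest WT clone for both and remained below TKO. The homeobox factor *Nanog* overlapped, with 443 and 680 CPM in TKO and 220, 512 and 303 CPM in WT (0.70 ± 0.29, adjusted p = 0.18). *Pou5f1* (Oct4), at whose locus the eGFP reporter lies, overlapped too, with 364 and 185 CPM in TKO and 221, 287 and 231 CPM in WT (0.15 ± 0.28). For *Pou5f1* 1 TKO clone was above and the other below all WT clones, and without TKO_8.4 its log2 fold change was -0.42.

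The 9 core pluripotency genes had a median of -0.08, and 2 were lower in both TKO clones. *Sall4*, a zinc finger partner of Oct4 and Nanog, was at 248 and 221 CPM in TKO and 440, 325 and 361 CPM in WT (-0.68 ± 0.13, adjusted p = 0.0641). *Lin28a*, which blocks the maturation of let-7, was at 468 and 446 CPM in TKO and 807, 598 and 666 CPM in WT (-0.60 ± 0.13). Neither reached a 2-fold difference, but their groups were apart and the TKO clones were close. The formative and primed epiblast genes had a median of -0.68 over 18 genes, with 4 lower and 0 higher at an unadjusted p under 0.05 and over 2-fold and 6 below all WT clones in both TKO clones. Without TKO_8.12 the median was -0.12 and without WT O4.1 -0.44. *Fgf8*, an epiblast and primitive streak ligand, was at 32.5 and 60.4 CPM in TKO and 125, 72.0 and 119 CPM in WT.

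With all libraries, definitive endoderm genes were lower in TKO by the widest margin of the 26 lists. Without TKO_8.12 the median of the *Hox* list was lower, at -2.32 against -2.06. The median log2 fold change over the 16 tested endoderm genes was -2.68, with 11 of the 16 lower at an unadjusted p under 0.05 and over 2-fold (background 3.23%) and 11 below all WT clones in both TKO clones (background 18.7%), while 0 were higher. DESeq2 called 11 lower, edgeR without WT clone O4.2 also called 11 and without TKO_8.4 it called 2 of 17. In bulk RNA, fewer cells of a type and less RNA per cell cannot be told apart.

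*Sox17*, an endoderm transcription factor, was at 4.42 and 0.798 CPM in the TKO clones and 73.1, 11.1 and 35.5 CPM in WT O4.1, O4.2 and O4.13 (-3.87 ± 0.97, adjusted p = 0.0760). *Gata6*, a GATA factor of primitive and definitive endoderm and of the heart, was at 3.92 and 5.58 CPM in TKO and 63.2, 17.6 and 49.4 CPM in WT (-3.20 ± 0.76, adjusted p = 0.0729). *Gata4*, of the same family, was at 4.89 and 10.6 CPM in TKO and 98.0, 21.9 and 88.5 CPM in WT. In each of these genes the TKO clones were below WT O4.2, and O4.2 was below the other WT clones. The pattern was the same for *Cxcr4*, the chemokine receptor used to sort definitive endoderm, at 5.75 and 4.2 CPM in TKO and 90.8, 23.9 and 66.5 CPM in WT (-3.59 ± 0.80, adjusted p = 0.0647). *Foxa1*, a pioneer factor of endoderm, was at 1.10 and 0.479 CPM in TKO and 11.6, 2.72 and 4.09 CPM in WT. *Cer1*, a secreted inhibitor of Nodal, BMP and Wnt, was at 7.01 and 0.957 CPM in TKO and 71.0, 22.4 and 27.9 CPM in WT. Visceral endoderm genes differed less, with a median of -0.05 over 17 genes.

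Primitive streak and mesoderm genes split into a part that was lower in both TKO clones and a part that followed the clone. The median over 25 tested genes was -1.18, with 10 lower and 0 higher at an unadjusted p under 0.05 and over 2-fold and 12 below all WT clones in both TKO clones. The median was -0.60 without TKO_8.4 and -1.88 without TKO_8.12. DESeq2 called 8 lower, edgeR without WT clone O4.2 also called 8, and without TKO_8.4 it called 0 of 25. *Kdr*, the VEGF receptor of early mesoderm and blood vessels, was at 2.29 and 4.73 CPM in TKO and 86.7, 21.8 and 125 CPM in WT (-4.50 ± 1.18, adjusted p = 0.0794). *Lhx1*, a LIM homeobox factor of the anterior streak, was at 8.91 and 12.9 CPM in TKO and 192, 58.2 and 131 CPM in WT. *Eomes*, the T-box factor upstream of both endoderm and cardiac mesoderm, was at 73.0 and 56.1 CPM in TKO and 279, 104 and 245 CPM in WT (-1.69 ± 0.44). *Gsc*, a homeobox gene of the organizer, was at 5.95 and 5.90 CPM in TKO and 22.7, 10.04 and 20.1 CPM in WT. In these genes both TKO clones lay below WT O4.2.

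*T* (Brachyury), the T-box factor of the streak, belonged to the other part, at 65.2 CPM in TKO_8.4 and 213 CPM in TKO_8.12 against 147, 82.8 and 173 CPM in WT. Its log2 fold change was 0.05 ± 0.55, and the TKO clones enclosed all WT clones. *Cdx2*, a homeobox factor of trophectoderm and of posterior mesoderm, was at 3.29 CPM in TKO_8.4 and 38.9 CPM in TKO_8.12 against 16.3, 3.62 and 27.4 CPM in WT (0.41 ± 0.88). For both genes WT O4.2 was the WT clone nearest to TKO_8.4. The mesoderm list differed accordingly between clones, with a median log2 difference (CPM + 1) from the WT mean of -1.35 in TKO_8.4 and -0.22 in TKO_8.12, while that of the endoderm list was -1.26 and -1.49.

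**Figure D3:**
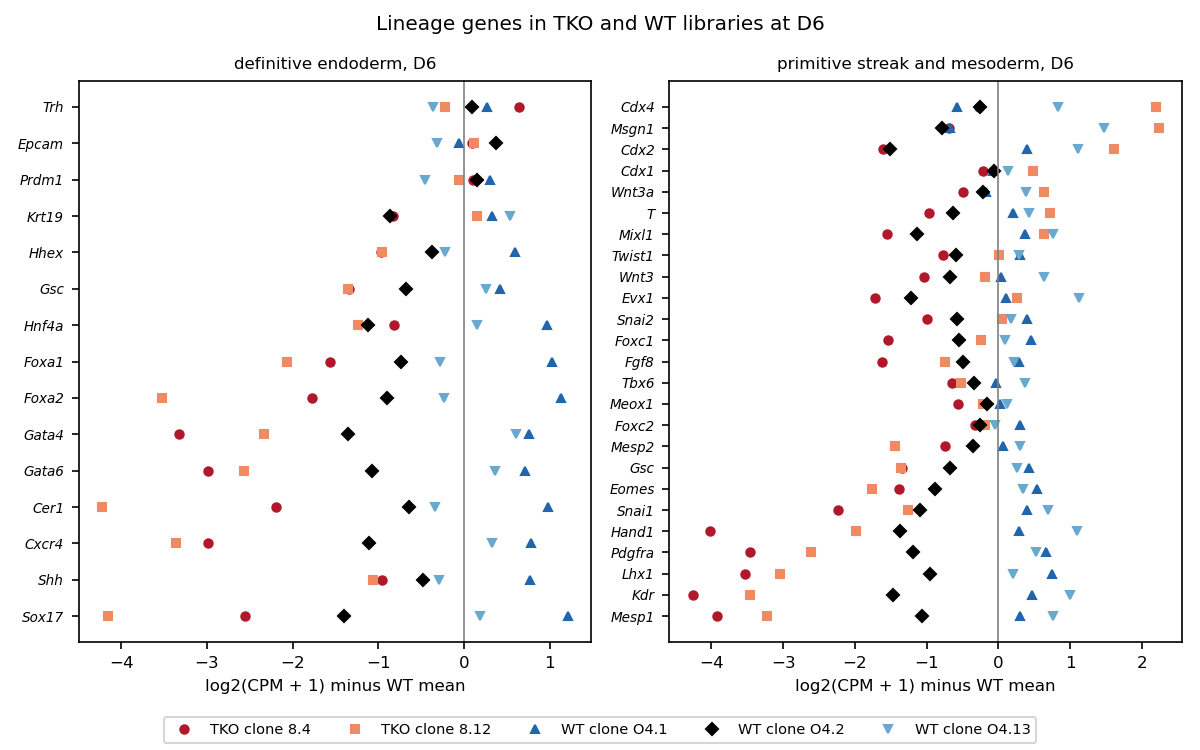
Definitive endoderm genes (left, 15 of the 16 tested) and 25 tested primitive streak and mesoderm genes (right) at D6, with log2(CPM + 1) of each library minus the mean of the 3 WT libraries on the x axis and 1 row per gene. *Sox17*, *Gata6*, *Cxcr4* and *Kdr* are lower in both TKO clones than in WT clone O4.2 (black), and that clone is lower than the other WT clones, while *T* and *Cdx2* lie on opposite sides of 0 in the TKO clones.

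Cardiac and smooth muscle genes were mixed, with a median of -0.15 over 26 genes, of which 11 had a log2 fold change above 0. The median was -1.13 without TKO_8.12, -0.49 without WT O4.2 and -0.02 without TKO_8.4 or WT O4.13. At an unadjusted p under 0.05 and over 2-fold 8 were lower and 0 higher, and both TKO clones were below all WT clones for 9 and above for 2. *Hand2*, a bHLH factor of the heart and limb, was at 0.0997 and 0.585 CPM in TKO and 7.80, 1.52 and 10.7 CPM in WT. *Tbx20*, a T-box factor of the heart, was at 0.499 and 1.49 CPM in TKO and 13.4, 3.43 and 17.2 CPM in WT. Both were lower in the TKO clones than in every WT clone. The neuroectoderm list had a median of -0.20 over 20 genes and the neural crest and mesenchyme list of -0.68 over 21, with 3 and 5 lower at an unadjusted p under 0.05 and 0 higher. The median of the neural crest list was -1.72 without TKO_8.12, -0.17 without TKO_8.4 and -0.40 without WT O4.13. Trophectoderm genes had a median of -0.45 over 15 genes, with 2 lower, and it was -0.82 without TKO_8.12 and -0.24 without TKO_8.4.

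Genes of the signals that direct the streak were examined by role. Among Wnt targets and inhibitors, 8 of 21 were lower and 1 was higher at an unadjusted p under 0.05 and over 2-fold, with a median of -0.60. *Lgr5*, an R-spondin receptor and Wnt target, was at 1.03 and 0.479 CPM in TKO and 5.38, 1.36 and 4.76 CPM in WT. *Apcdd1*, a membrane-bound Wnt inhibitor, was at 3.62 and 4.84 CPM in TKO and 23.7, 9.07 and 34.0 CPM in WT. *Sfrp1*, a secreted Wnt inhibitor, was at 40.7 and 27.3 CPM in TKO and 97.2, 56.8 and 53.1 CPM in WT. *Myc*, a Wnt and LIF target, was at 30.6 and 20.7 CPM in TKO and 86.4, 34.7 and 88.1 CPM in WT (-1.44 ± 0.34, adjusted p = 0.0729). Both TKO clones were below all WT clones for each of these genes.

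In the BMP list, 4 of 24 genes were lower and 0 higher at an unadjusted p under 0.05 and over 2-fold, with a median of -0.65, or -0.89 to -0.36 with single libraries left out. The ligand *Bmp5* was at 0.299 and 1.81 CPM in TKO and 21.9, 3.74 and 16.3 CPM in WT. *Smad6*, an intracellular inhibitor and target of BMP signalling, was at 7.65 and 13.8 CPM in TKO and 40.5, 18.1 and 62.0 CPM in WT. *Id3*, a BMP target that blocks bHLH factors, was at 35.8 and 37.5 CPM in TKO and 81.8, 38.5 and 84.8 CPM in WT, and the homeobox target *Msx1* at 8.14 and 18.4 CPM in TKO overlapped WT at 84.9, 18.1 and 102 CPM. WT O4.2 was the WT clone nearest to TKO for all 4 of these genes.

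The Nodal and Lefty list had a median of -0.20 over 16 genes, with 1 lower at an unadjusted p under 0.05. *Smad3*, a transducer of Nodal, was at 51.7 and 56.7 CPM in TKO and 90.9, 73.1 and 81.6 CPM in WT (-0.60 ± 0.14). *Acvr2b*, a receptor for Nodal and activin, was at 27.2 and 30.7 CPM in TKO and 37.3, 39.4 and 42.4 CPM in WT. *Lefty1*, a secreted Nodal inhibitor and target, overlapped, with 43.5 and 25.4 CPM in TKO and 32.0, 43.9 and 19.2 CPM in WT (0.13 ± 0.55).

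Imprinted genes, which are expressed from 1 parental allele by virtue of DNA methylation, had a median of -0.40 over 27 genes, with 1 higher and 7 lower at an unadjusted p under 0.05 and over 2-fold. *H19*, a maternally expressed RNA, was at 14.3 and 25.3 CPM in TKO and 61.0, 53.8 and 142 CPM in WT (-2.12 ± 0.57). Its neighbour *Igf2*, a paternally expressed growth factor, was at 65.9 and 223 CPM in TKO and 828, 265 and 688 CPM in WT (-2.04 ± 0.62). *Plagl1*, a paternally expressed zinc finger gene, was at 17.9 and 34.6 CPM in TKO and 13.0, 9.54 and 15.1 CPM in WT (1.06 ± 0.31). *Mest* overlapped at 71.2 and 197 CPM in TKO and 409, 166 and 450 CPM in WT. *H19* and *Igf2* were both lower in TKO although they are expressed from opposite alleles, and alleles were not separated here.

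Of the remaining lists, collagens and matrix genes had -0.14 over 30 genes, p53 targets and cell cycle inhibitors -0.19 over 20, the Y chromosome and X inactivation list 0.25 over 8, and glycolysis and glucose transport genes -0.16 over 21, of which 9 were below WT in both TKO clones. The summed level of the Y chromosome and X inactivation list was 34.0 CPM at D0 and 199 CPM at D6 in TKO_8.4, and 37.1 and 53.1 CPM in TKO_8.12. In WT it was 23.3 to 237 CPM at D0 and 59.2 to 219 CPM at D6. The TET and DNMT machinery had -0.17 over 20 genes, epithelial junctions -0.19 over 17 and endothelial and blood progenitor genes -0.05 over 17. *Apoe*, an apolipoprotein of visceral endoderm, was at 210 and 196 CPM in TKO and 309, 318 and 331 CPM in WT (-0.65 ± 0.13). *Hox* genes, which pattern the trunk, had a median of 0.12 over 23 genes, but the TKO clones differed, with a median log2 difference (CPM + 1) of -1.03 for TKO_8.4 minus TKO_8.12. Without TKO_8.4, 5 of 29 tested *Hox* genes were called higher than WT.

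**Figure D4:**
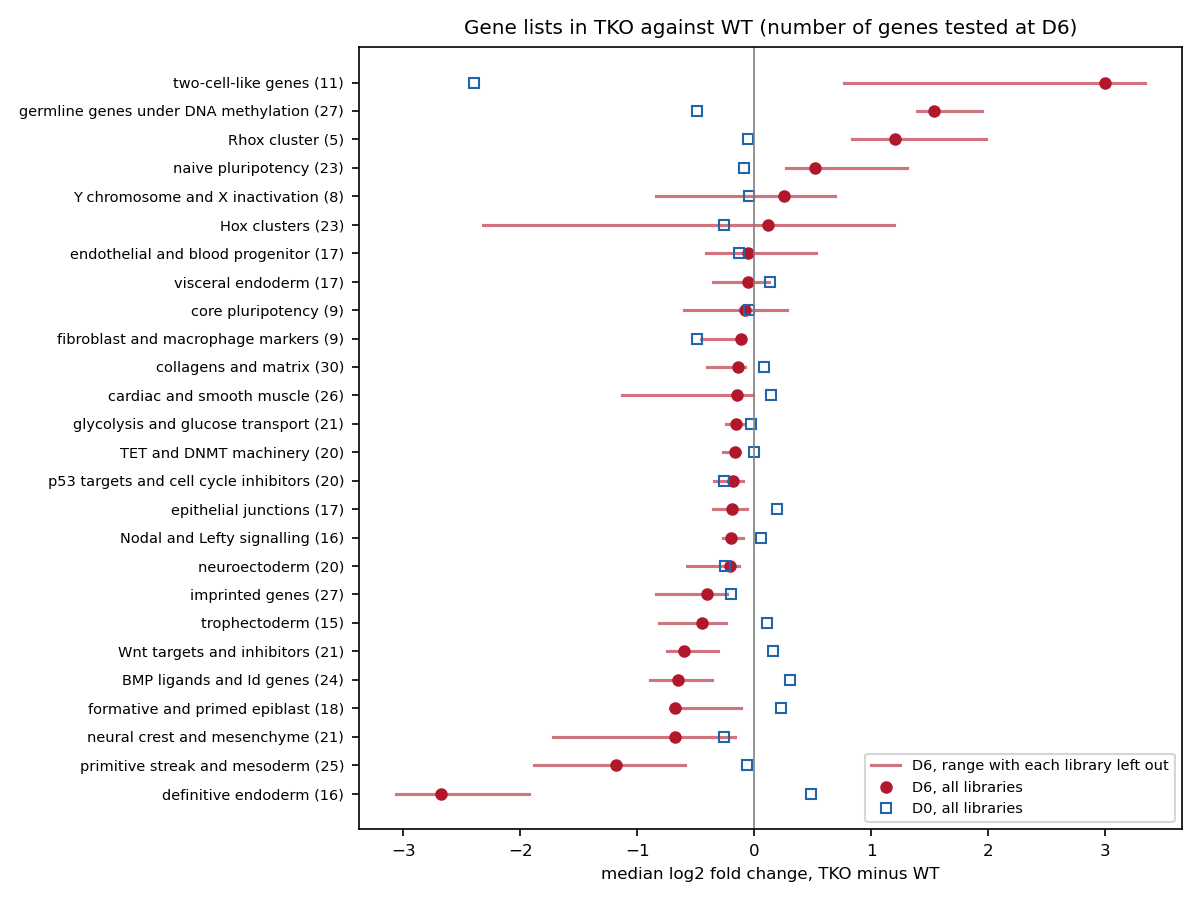
Median log2 fold change, TKO minus WT, of each gene list at D0, over its genes tested at D0, and at D6, over its genes tested at D6, whose number is in parentheses, with lines spanning the D6 medians when each library was left out. Germline and two-cell-like genes had medians of 1.53 and 3.00 at D6 but -0.49 and -2.39 at D0, and definitive endoderm had -2.68 at D6.

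The genes with the smallest p at D6 were named by a fixed rule, 12 in each direction with an absolute log2 fold change over 1 and groups that do not overlap, and none of them passed the adjusted test. Their adjusted p was 0.0641. The higher genes included *Lipo1*, *Sh2d4a*, *Fbxo15*, *Eif2s2*, *Sycp1*, *Anapc10*, *Aspa*, *Stk31*, *Adad1*, *Rnf17* and *Dpep3*. *Rnf17* (Tdrd4), a Tudor domain gene of male germ cells, was at 81.7 and 88.1 CPM in TKO and 26.6, 44.6 and 23.1 CPM in WT (1.43 ± 0.27). *Adad1*, an RNA-binding protein of the testis, was at 1.26 and 1.17 CPM in TKO and 0.269, 0.389 and 0.235 CPM in WT. *Eif2s2*, which encodes a subunit of the initiation factor eIF2, was at 574 and 768 CPM in TKO and 253, 397 and 289 CPM in WT. Of these, *Sycp1*, *Stk31*, *Adad1*, *Rnf17* and *Dpep3* are known for their expression in the germline.

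The lower genes were *Fbln1*, *Kif26a*, *Ackr3*, *Cgnl1*, *Gfpt2*, *Hspa12b*, *Nrtn*, *Prdm8*, *Fibcd1*, *Slc39a8*, *Efna5* and *Cobll1*. *Fbln1*, an extracellular matrix protein, was at 61.8 and 49.1 CPM in TKO and 141, 145 and 143 CPM in WT (-1.37 ± 0.21). *Ackr3*, a scavenging receptor for the ligand of Cxcr4, was at 5.65 and 5.32 CPM in TKO and 21.2, 17.0 and 20.6 CPM in WT (-1.83 ± 0.30). *Gfpt2*, an enzyme of hexosamine synthesis, was at 40.7 and 50.4 CPM in TKO and 108, 104 and 120 CPM in WT (-1.28 ± 0.23). In these, unlike in the lineage genes, WT O4.2 lay with the other WT clones. *Hspa12b*, a heat shock protein of endothelium, was at 1.30 and 1.12 CPM in TKO and 8.66, 3.70 and 10.9 CPM in WT, with O4.2 lowest in WT.

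The effect of TKO differed between the days, by a test of the difference itself (an interaction contrast in edgeR over the libraries of both days). TKO rose relative to WT from D0 to D6 at 288 of 15639 genes (1.84%) and fell at 272 (1.74%). Of the 288, 147 had been called lower at D0 and 190 were above all WT clones in both TKO clones at D6. Of the 272, 55 had been called higher at D0 and 204 were below all WT clones in both TKO clones at D6. Over all tested genes, 2.12% were called lower and 1.03% higher at D0, and 17.6% and 18.7% lay above and below at D6. The 288 and 272 genes were chosen by the same values, so these shares follow in part from the choice and are no separate result. Single libraries moved the counts of genes that rose and fell. Without WT O4.2 at D6 they were 620 and 526, without TKO_8.4 at D6 163 and 247, without WT O4.1 at D6 168 and 132, without WT O4.13 at D6 169 and 133, and without TKO_8.12 at D0 451 and 590. Without WT O4.2 or WT O4.13 at D0 they were 180 and 155 or 179 and 145.

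Germline genes made up 14 of the genes that rose relative to WT between the days, of 27 tested, and none fell. They were *Dazl*, *Ddx4*, *Mael*, *Syce1*, *Tex11*, *Stk31*, *Rpl10l*, *Rpl39l*, *Stag3*, *Mov10l1*, *Piwil2*, *Dpep3*, *Slc25a31* and *Dnmt3l*. The summed level of the list was 643, 750 and 743 CPM in WT O4.1, O4.2 and O4.13 at D0 and 142, 272 and 165 CPM at D6. In TKO_8.4 and TKO_8.12 it was 263 and 344 CPM at D0 and 490 and 458 CPM at D6. The rise relative to WT thus includes a fall within WT. The change of *Dazl* was 3.35 ± 0.70 on the log2 scale (adjusted p = 0.0125), that of *Piwil2* 2.89 ± 0.45 (adjusted p = 0.00373) and that of *Stk31* 2.74 ± 0.63 (adjusted p = 0.0179). With single libraries left out, 6 to 18 of the list rose. Two-cell-like genes rose at 11 of 13, but without TKO_8.4 at D6 at 0 of 15. Of the definitive endoderm list, 6 of 16 fell, among them *Sox17*, *Gata4*, *Gata6*, *Cxcr4* and *Hhex*. Without TKO_8.12 at D6 or at D0, 3 of 17 fell in either case, and without TKO_8.4 at D6 4 of 17. Without WT O4.1 at D6, or O4.2 or O4.13 at D0, 4 of 16 fell in each case. *Gata6* changed by -4.95 ± 1.14 (adjusted p = 0.0179) and *Cxcr4* by -4.08 ± 0.92 (adjusted p = 0.0170). At D0 *Gata6* had been at 0.238 and 4.06 CPM in TKO and 0.306, 1.10 and 0.533 CPM in WT, and it was at 3.92 and 5.58 CPM in TKO and 63.2, 17.6 and 49.4 CPM in WT at D6, so the fall is one relative to WT, whose level was higher at D6. *Eomes*, higher in TKO at D0 at 20.2 and 7.92 CPM against 6.04, 7.002 and 6.72 CPM, changed by -2.80 ± 0.57 (adjusted p = 0.0104). With the clone as a block, which pairs the days, 19 germline genes rose and 5 definitive endoderm genes fell. In that fit 9 of 23 naive pluripotency genes rose in place of 1, 6 of 25 primitive streak and mesoderm genes fell in place of 3, and 4 of 27 imprinted genes fell in place of 1.

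By the smallest p, the genes that rose between the days were led by *Clca4*, *D1Pas1*, *Lipo1*, *Rnf17*, *Nckap5* and *Abcb1a*. *D1Pas1*, a testis helicase gene closely related to *Ddx3x* whose reads may therefore be shared, was at 9.98 and 4.76 CPM in TKO and 57.8, 69.1 and 62.3 CPM in WT at D0, and at 12.6 and 2.66 CPM in TKO and 2.69, 3.27 and 1.64 CPM in WT at D6. All WT clones were higher at D0 than at D6, while in TKO_8.4 the level was similar on both days. The genes that fell were led by *Sema3f*, *Trib2*, *Adamts9*, *Rela*, *Smo* and *R3hdm4*. *Smo*, the transducer of Hedgehog signals, was at 89.0 and 82.5 CPM in TKO and 49.0, 33.3 and 36.4 CPM in WT at D0, and at 79.6 and 88.4 CPM in TKO and 132, 93.7 and 152 CPM in WT at D6. TKO was thus above all WT clones at D0 and below them at D6, with little difference between its own days.

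Genes called at D0 had both TKO clones on the same side of all WT clones at D6 no more often than all tested genes did. Of the 283 genes called lower at D0 and tested at D6, 40 (14.1%) were below all WT clones in both TKO clones at D6 and 66 (23.3%) were above them, against backgrounds of 18.7% and 17.6%. Their median log2 fold change was -1.53 at D0 and 0.29 at D6. Of these 283, 73 (25.8%) were more than 2-fold higher at D6 and 24 (8.48%) more than 2-fold lower, with no background given. Of the 147 called higher at D0, 20 (13.6%) were above and 22 (15%) below at D6, with medians of 1.38 and 0.08. Among these 147, 17 (11.6%) were more than 2-fold higher at D6 and 9 (6.12%) more than 2-fold lower. *Epha4*, an ephrin receptor and the gene with the smallest p among those higher at D0, was at 226 and 184 CPM in TKO and 39.1, 55.9 and 52.2 CPM in WT at D0, and at 56.4 and 70.2 CPM in TKO and 68.0, 48.6 and 63.7 CPM in WT at D6, with overlap. *Adrb3*, the beta-3 adrenergic receptor, was among those that stayed apart, at 17.7 and 16.8 against 6.88, 8.10 and 7.58 CPM at D0 and at 13.0 and 14.1 against 7.20, 4.63 and 5.63 CPM at D6.

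The 2 TKO clones differed from each other more than 2-fold (log2 of CPM + 1) at 758 genes at D6 (4.91%), against 64 to 759 genes between pairs of WT clones, 38 between the DKO clones and 8 between the *Tet2*-/- clones. Both TKO clones were over 2-fold above the WT mean at 88 genes and below it at 182, and they lay over 2-fold on opposite sides of it at 5 and 9 genes. Higher in TKO_8.12 by the largest margin were *Wnt5a*, *Pgam2*, *Cdx2*, *Rspo3*, *Pmp22* and *Bmp2*, and in TKO_8.4 *Nefm*, *Nefl*, *Ddx3y*, *Foxd3*, *Pla2g4a* and *Sohlh2*. *Wnt5a*, a non-canonical Wnt ligand of posterior mesoderm, was at 54.7 CPM in TKO_8.12 and 3.32 in TKO_8.4, against 26.3, 7.98 and 43.4 CPM in WT. *Rspo3*, a ligand that enhances Wnt signals, was at 40.8 and 3.62 CPM, against 25.4, 11.9 and 41.7 CPM in WT. *Nefm*, a neurofilament subunit, was at 125 CPM in TKO_8.4 and 13.2 in TKO_8.12, against 73.0, 34.3 and 51.8 CPM in WT. *Foxd3*, a forkhead factor of ESCs and neural crest, was at 14.3 and 1.33 CPM, against 4.46, 10.2 and 3.49 CPM in WT.

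Some chromosomes were shifted as a whole, relative to the median of all autosomes and as a difference from the WT mean in log2 CPM. In TKO_8.12, the median of chromosome 12 was 0.39 and that of chromosome 6 was 0.39 at D6, with 0.39 and 0.37 at D0. Its chromosome 11 was at 0.14 at D6 and 0.35 at D0. Chromosome 8 was raised in both TKO clones, at 0.27 in TKO_8.4 and 0.21 in TKO_8.12 at D6 and at 0.22 and 0.18 at D0. Both lay above WT O4.1, O4.2 and O4.13, whose chromosome 8 was at 0.04, -0.17 and 0.13 at D6 and at 0.13, -0.15 and 0.03 at D0. In TKO_8.4 chromosome 19 was at -0.04 at D6 and 0.35 at D0. The D0 and D6 libraries labelled TKO_8.4 thus differ at chromosome 19, and whether they hold the same cells, on which the changes between days rest, was not tested. In WT clones O4.1 and O4.2, chromosome 11 was at -0.21 and 0.14 at D6. As examples, *Stk31* and *Tet3* lie on chromosome 6 and *Dpep3* on chromosome 8, and the part of these shifts in the values of any gene was not tested. Leaving out chromosomes 6, 8, 11, 12 and 19 kept 16 of 23 tested naive pluripotency genes and 10 of 23 *Hox* genes. With all members on chromosomes 6, 8, 11, 12 and 19 left out, the medians of the lists moved by less than the spread between clones for every list but neuroectoderm (-0.31 in place of -0.20).

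**Figure D5:**
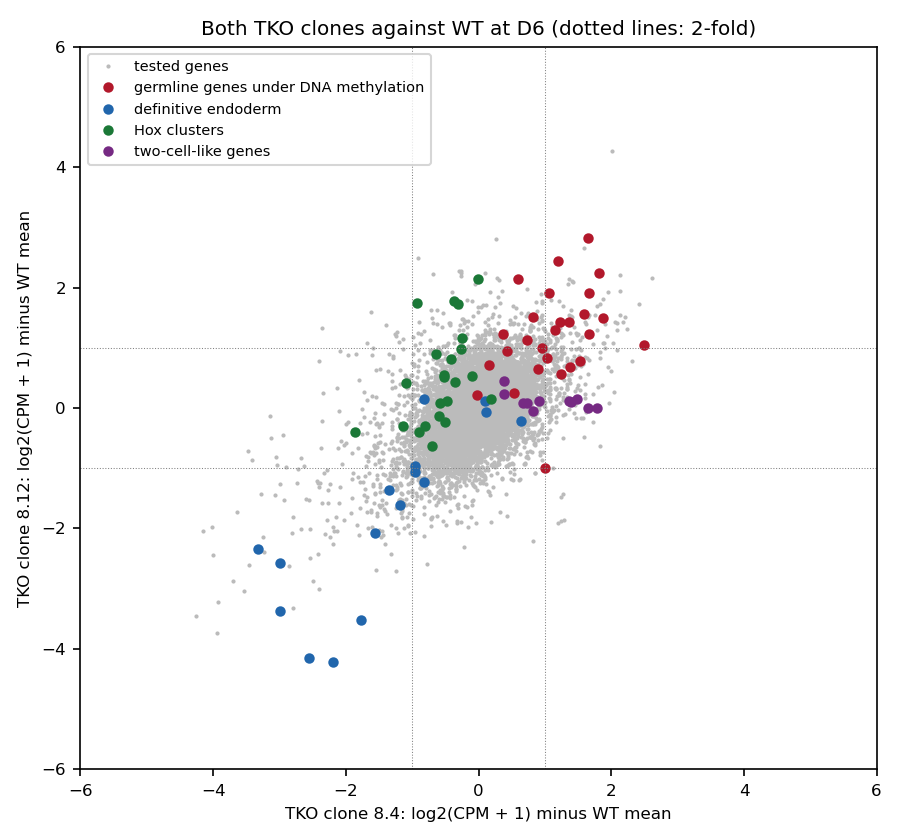
Difference from the WT mean in log2(CPM + 1) at D6 of TKO_8.4 (x axis) and TKO_8.12 (y axis), 1 point per tested gene, with dotted lines at 2-fold. Both clones lie over 2-fold below WT at 182 genes and over 2-fold above it at 88, and on opposite sides at 5 and 9.

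TKO clones were set beside DKO clones, which share the edits of *Tet1* and *Tet2* but not that of *Tet3*. No gene was called higher or lower in TKO (0% each), with a smallest adjusted p of 0.594, and 207 (1.34%) were higher and 96 (0.622%) lower at an unadjusted p under 0.05 and over 2-fold. DESeq2 called 3 higher and 1 lower, and edgeR without TKO_8.4 called 85 and 52. The germline list had a median of 0.28 and the definitive endoderm list of -0.74 in TKO minus DKO. *Tet3* itself was at 14.2 and 14.0 CPM in DKO against 8.34 and 9.31 CPM in TKO (-0.68 ± 0.23, adjusted p = 0.594). *Brdt* was at 3.81 and 4.25 CPM in DKO, between the 2.43 and 7.07 CPM of the TKO clones. A p that misses the threshold does not show that TKO and DKO were alike.

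Against *Tet2*-/- clones, 928 genes (6.01%) were higher and 406 (2.63%) lower in TKO at D6. Of the germline list, 7 of 27 were called higher and 0 lower (*Mael*, *Stk31*, *Stag3*, *Rec8*, *Dpep3*, *Tuba3b* and *Brdt*), of the primitive streak and mesoderm list 8 of 25, of the trophectoderm list 10 of 15, and of the collagens and matrix list 10 of 30, with 1 lower. Of the neuroectoderm list 6 of 20 were called lower and 0 higher, and of the formative and primed epiblast list 4 of 18 and 0. *Brdt* rose from 0.848 and 0.586 CPM in *Tet2*-/- to 2.43 and 7.07 CPM in TKO (2.70 ± 0.68, adjusted p = 0.0278). *Mael*, a gene of the piRNA pathway, rose by 2.60 ± 0.59 (adjusted p = 0.0202). Among the genes with the smallest p, *Lamb3*, a laminin chain, rose from 1.61 and 2.01 CPM to 19.8 and 20.1 CPM (3.46 ± 0.37, adjusted p = 0.00318), and *Tgfbi*, a matrix protein induced by TGF-beta, fell from 55.4 and 68.3 CPM to 4.16 and 6.17 CPM (-3.59 ± 0.34, adjusted p = 0.00318). *Ptch1* and *Gli2*, a receptor and a transcription factor of Hedgehog signalling, fell by 2.02 and 1.12 on the log2 scale. The counts rested on single clones. Without TKO_8.12 they were 156 and 42, without TKO_8.4 1301 and 782, and without *Tet2*-/- clone Tet2_KO_3.10 or Tet2_KO_3.11 10 and 19 or 0 and 2. Without TKO_8.12, Tet2_KO_3.10 or Tet2_KO_3.11, 0 germline genes were called. Without TKO_8.12, the mesoderm, trophectoderm and collagen lists had 0, 2 and 1 genes called higher, the neuroectoderm list 0 called lower and the formative list 1. Without Tet2_KO_3.10 or Tet2_KO_3.11 none of these lists had a called gene, except 1 formative gene that was lower without the former.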

How the data were processed

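Per the labels and the methods of the study, ERCC spike-in RNA was added, polyadenylated RNA was made into NEBNext Ultra libraries and reads were mapped to mm9 with STAR 2.5.1 (the submitters' processing notes also name DESeq2). The authors deposited counts per RefSeq transcript, not normalized. The counting program is named in 2 ways, its use of strand is not stated, and no spike-in lines were used here, so antisense, overlapping and multicopy genes are uncertain. Each table has 31928 lines for 22926 symbols, and the first line of a symbol was used (4911 symbols have more).

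Libraries were scaled by TMM, genes kept by filterByExpr (minimum count 10), and edgeR 4.0.16 (R 4.3.3, limma 3.58.1) quasi-likelihood models with 1 coefficient per group were fitted to the 12 libraries of a day, or to all 24 for the change between days. Calls needed a Benjamini-Hochberg adjusted p under 0.05 and a change over 2-fold. SE is the absolute log2 fold change over the square root of F. CPM used TMM-scaled totals. DESeq2 1.42.0 and the other alternatives are in the closing section. The members and the 26 lists (503 genes, 435 tested at D6) were chosen with earlier results of these data known. Named genes were the 3 Tet genes, the 12 with the smallest p in each direction among those over 2-fold and without overlap, up to 4 per list by p, the genes that the study names, the 6 largest clone differences in each direction, and up to 6 per direction called at D0, for the change or against *Tet2*-/-, passing over predicted genes. Other genes with values were chosen after these were seen. Same-numbered TKO and WT samples at D6 are not said to share more than a number, and whether they share a culture or batch was not tested. Their deviations from the group mean had r = 0.243 and 0.0739. The days were paired by the clone label, for which r was 0.113 to 0.203, so r did not separate these kinds of pair. Positions are from GENCODE vM1 on NCBIM37, which is mm9. The floor of 3 counts covers counting error only. Some items are not reported here.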

Additional observations from a re-analysis of the deposited data

Results flagged for a closer look

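The TKO minus WT difference changed between the days at 288 genes in the higher and 272 in the lower direction by an interaction contrast in edgeR over both days, a difference between groups that was tested directly. The changes of named genes that passed this test are given here on the log2 scale, for genes of the D6 comparison or with values on both days, as the difference from WT at D6 minus that at D0. Of the germline list, *Dazl* changed by 3.349, *Piwil2* by 2.892, *Stk31* by 2.74, *Dpep3* by 2.699 and *Dnmt3l* by 2.59. Of genes outside that list, *Rnf17* of male germ cells changed by 2.067 and the testis helicase gene *D1Pas1* by 4.718. Of the two-cell-like genes, whose families share reads and whose D6 level came mainly from TKO_8.4, *Gm8300* changed by 5.848, *Zscan4d* by 5.814, *Usp17la* by 5.491 and *Usp17le* by 4.879. Their WT levels at D6 lay near 3 counts, so these fitted values also depend on the prior count. *Lipo1* changed by 2.222 and *Fbxo15* by 2.217.

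In the other direction, the endoderm genes *Sox17*, *Gata6*, *Gata4* and *Cxcr4* changed by -5.581, -4.947, -4.208 and -4.082. The mesoderm genes *Kdr* and *Eomes* changed by -4.836 and -2.804, the Wnt genes *Apcdd1* and *Myc* by -3.156 and -1.928, and *Foxh1*, a cofactor of Smads in Nodal signalling, by -1.758. Of the genes with the smallest p at D6, *Fibcd1*, *Slc39a8*, *Hspa12b*, *Cobll1*, *Kif26a* and *Cgnl1* changed by -4.035, -2.969, -2.416, -1.915, -1.437 and -1.327. *Fibcd1* was at or under the level of 3 counts in both TKO clones at D6, so its fitted value depends on the prior count. *Epha4* changed by -2.001 and *Smo* by -1.71. With the clone as a block, *Myc* and *Fibcd1* were no longer called.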

How the results depend on the processing

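For TKO against WT at D6, DESeq2 called 176 genes higher and 294 lower, edgeR without the low-count filter 37 and 56, and an adjusted p under 0.1 gave 188 and 219, where the reported fit called 0 and 0. Size factors by RLE, library totals, summed lines, robust dispersion, no minimum fold, only the TKO and WT libraries and a replicate block by number also gave 0 and 0. With 1 library left out, the ranges were 0 to 376 and 0 to 345, and the lone TKO clone was then taken to vary like the other groups. Fitting only the TKO and WT libraries at D0 gave 1 and 2 calls, no minimum fold gave 642 and 603, and left-out libraries gave 58 to 459 and 168 to 688. Against DKO the counts were 3 and 1 by DESeq2, and 0 to 85 and 0 to 52 with libraries left out, and against *Tet2*-/- the latter were 0 to 1301 and 2 to 782. For the change between days they were 163 to 620 and 132 to 590. Leaving out WT O4.2 on both days gave 490 genes that rose, and leaving out TKO_8.12 on both days 467 that rose and 533 that fell. With the clone as a replicate block, which pairs the days, 427 genes rose and 356 fell, and with a block by number 677 were higher and 322 lower than in *Tet2*-/-. Under the block by number, 3 of 27 germline genes were called higher than in *Tet2*-/- in place of 7, 5 of 30 collagen and matrix genes in place of 10 and 5 of 25 mesoderm genes in place of 8, and 5 of 13 two-cell-like genes were called lower at D0 in place of 9. For lists, the block by clone is given with the change between days. Neither block moved a total count of calls by over 1.5 times.

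Of the genes named with values, 24 were called higher and 35 lower by DESeq2, 15 and 18 without the filter, 14 and 7 without TKO_8.4 and 19 and 37 without WT O4.2, of 75. The log2 fold change of *T* was -0.0134 with library totals and -0.1423 with the block by number. With single libraries left out, the direction turned for these genes, with ranges *Tet1* -1.005 to 1.125, *Tet2* -0.3809 to 0.2593, *Usp17le* -0.02972 to 3.851, *Pou5f1* -0.4185 to 0.5589, *Lefty1* -0.3187 to 0.4562, *T* -1.046 to 0.6609 and *Cdx2* -2.262 to 1.301. Without TKO_8.4, that of *Tet1* was -1.005, of *Usp17le* -0.02972, of *Pou5f1* -0.4185 and of *Lefty1* -0.3187. Without TKO_8.12, *Tet2* was at 0.2593, *T* at -1.046 and *Cdx2* at -2.262. Without WT O4.2, *Tet2* was at 0.1125, *T* at -0.209 and *Cdx2* at -0.06415, and without WT O4.13 *Lefty1* was at -0.1365. The median of neuroectoderm was -0.3099 without members on chromosomes 6, 8, 11, 12 and 19. With single libraries left out, list medians ranged as follows: TET and DNMT machinery -0.2699 to -0.1201, core pluripotency -0.5983 to 0.2787, naive pluripotency 0.2736 to 1.306, formative and primed epiblast -0.7236 to -0.1168, Nodal and Lefty signalling -0.2682 to -0.09956, BMP ligands and Id genes -0.8938 to -0.3609, Wnt targets and inhibitors -0.7495 to -0.3116, primitive streak and mesoderm -1.884 to -0.5951, cardiac and smooth muscle -1.127 to -0.01503, endothelial and blood progenitor -0.4094 to 0.5304, definitive endoderm -3.063 to -1.93, visceral endoderm -0.3505 to 0.1238, neuroectoderm -0.5742 to -0.1275, neural crest and mesenchyme -1.722 to -0.1668, epithelial junctions -0.3566 to -0.06006, trophectoderm -0.8168 to -0.2442, germline genes under DNA methylation 1.391 to 1.946, two-cell-like genes 0.7656 to 3.337, Rhox cluster 0.8353 to 1.978, imprinted genes -0.8393 to -0.2324, Hox clusters -2.316 to 1.196, collagens and matrix -0.4023 to -0.07688, p53 targets and cell cycle inhibitors -0.3456 to -0.09672, glycolysis and glucose transport -0.2423 to -0.09143, Y chromosome and X inactivation -0.8375 to 0.6861 and fibroblast and macrophage markers -0.4518 to -0.1528. The germline list stayed above 0 and the definitive endoderm list below 0 in all of these. Other lists kept their sign too, among them naive pluripotency, two-cell-like genes and the Rhox cluster above 0 and the Wnt, BMP and mesoderm lists below 0. The causes were not tested. With 2 against 3 clones, an exact permutation test of a single gene cannot give a p under 0.1.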
